A study of Mus musculus with 12 samples.

Results

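The array carried 16194 probes whose name is a genome interval, with a strand letter for all but 13, and whose description calls the interval a lincRNA locus, out of 55681 probes that are not controls. They were chosen by that name alone. No measured value decided which probes belong, but this kind of probe was chosen with earlier results of these data known. A long intergenic noncoding RNA (lincRNA) is a long transcript without a recognised reading frame that lies between protein-coding genes. Such loci were catalogued largely from chromatin marks of active promoters and transcribed bodies, so a catalogued interval can be broader than the RNA and its strand can be unknown. In embryonic stem cells many are transcribed at low levels, and some take part in X inactivation, imprinting, nuclear bodies or the control of neighbouring genes.

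The study profiled mouse embryonic stem cells on 12 one-colour arrays, 4 in each of 3 groups, and describes each as a separate biological sample. The WT group held wild type embryonic stem cells, and the Id1KO group cells with a knockout of Id1, a helix-loop-helix protein without a DNA-binding region that blocks differentiation factors. Both came as existing lines from another laboratory, 1 line a genotype as far as the labels go. The Id1KO_Zrf1KD group held the Id1KO cells after lentiviral infection with short hairpins against Zrf1 and selection with puromycin into stable cells. Zrf1, named Dnajc2 on the array, is a chaperone that also binds ubiquitinated histone H2A. All cells grew in GMEM with serum and the self-renewal factor LIF. Id1KO cells with a control hairpin were not analysed here, so the hairpin, the infection and the selection cannot be told apart. The labels do not say how many infected cultures gave the 4 samples, and p-values measure the spread between these samples.

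The sequences of 8 probes show what was measured at the loci on which the results turn: the leading rise in Id1KO, the leading rise and the leading fall with Zrf1 knockdown, a locus whose strands moved apart, 2 probes of a locus that fell on 4 probes, and the brightest probe. Leading means the largest difference when each locus strand is given by its probe with the smallest adjusted p, among probes that each of the compared groups showed above background on some array; other probes of these or other loci differed by more. Each is printed 5′ to 3′ as spotted, on the strand of its locus in build mm9. The forward and reverse probes of chromosome 4 overlap on opposite strands.
chrX:50087925-50101700 reverse, probe at chrX:50094899-50094958: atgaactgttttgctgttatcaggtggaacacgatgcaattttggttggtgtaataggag
chr16:9158862-9162427 forward, probe at chr16:9162235-9162294: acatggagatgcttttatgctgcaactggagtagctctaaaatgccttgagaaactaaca
chr3:41143423-41359623 reverse, probe at chr3:41266887-41266946: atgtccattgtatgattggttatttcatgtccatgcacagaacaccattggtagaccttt
chr4:146507925-146532650 forward, probe at chr4:146531763-146531822: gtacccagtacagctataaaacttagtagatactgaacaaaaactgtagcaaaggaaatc
chr4:146507925-146532650 reverse, probe at chr4:146531782-146531841: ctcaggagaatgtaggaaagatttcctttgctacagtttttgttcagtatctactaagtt
chr1:182180931-182186106 reverse, probe at chr1:182183924-182183983: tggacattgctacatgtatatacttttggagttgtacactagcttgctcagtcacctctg
chr1:182180931-182186106 reverse, probe at chr1:182181464-182181523: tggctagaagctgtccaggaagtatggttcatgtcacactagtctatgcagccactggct
chr11:22681800-22707775 reverse, probe at chr11:22686751-22686810: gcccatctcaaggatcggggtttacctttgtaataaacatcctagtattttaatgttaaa

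The 16194 probes covered 4610 strands of 3543 loci, and loci that overlap merged into 2226 clusters. The forward strand had 8184 probes and the reverse strand 8010. Both strands were covered at 1067 loci and 1 strand at 2476. A locus strand had 1 to 10 probes with a median of 3, each spotted once, and the median locus was 7304 bases long. Of the 16076 probes with a genome position, 16068 lay inside their named interval. Their median GC content was 45%, against 41.7% for the other probes. Another array name carried the same sequence at 76 probes, so a locus can also be a named gene.

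Levels are log2 processed signals relative to the 75th percentile of the array. Zrf1 knockdown was visible in the target itself: Dnajc2 fell to -0.27 ± 0.08 (SD, n = 4) in Id1KO_Zrf1KD, from 1.89 ± 0.11 in Id1KO and 2.0 ± 0.12 in WT. The Id1 probe was not lower in the arrays labelled Id1KO, at 1.23 ± 0.31 against 0.86 ± 0.20 in WT (log2 difference 0.37, limma adjusted p = 0.0533). The labels do not say which part of Id1 was deleted, and the probe may check nothing. All 12 markers of embryonic stem cells were well above background in every group; 4 were higher and 6 lower in Id1KO than in WT, and 6 higher and 4 lower with knockdown. The markers of endoderm and of fibroblasts moved with the groups: all 12 endoderm markers and all 15 fibroblast markers were higher in Id1KO_Zrf1KD than in Id1KO. The summed endoderm level was 123 to 129 in Id1KO, 220 to 233 in WT and 399 to 412 in Id1KO_Zrf1KD, in units of the 75th percentile. The fibroblast sums were 98.9 to 103, 121 to 132 and 237 to 240 in that order. Such sums follow the brightest marker most, which for endoderm was Sparc, at 7.42 in WT and 6.48 in Id1KO. Between Id1KO and WT the endoderm markers were mixed, with 4 called higher, 6 called lower and a median log2 difference of -0.07. Of the fibroblast markers, 2 were called higher and 10 lower in Id1KO. Afp of endoderm and Lum of fibroblasts were not well above background on any WT or Id1KO array. The part of these markers in the lincRNA results was not tested. Fewer cells that make an RNA and less of it per cell cannot be told apart in such bulk samples.

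Most lincRNA probes gave no usable signal, and the fewest were seen after Zrf1 knockdown. On all 4 arrays of at least 1 group, 5821 probes (35.9%) were well above background by the scanner software's flag, against 63.5% of the other probes, 73.0% of probes with a gene symbol, 56.8% of Rik probes and 50.6% of Gm-number probes. Those 5821 were tested. Another 6889 (42.5%) were above background on no array, against 24.8% of other probes, and 3942 (24.3%) were on all 12. The share above background was 36.2% to 41.1% on the WT arrays, 37.7% to 39.1% on the Id1KO arrays and 31.9% to 37.9% on the Id1KO_Zrf1KD arrays. On 4 of 4 arrays it was 5075 probes in Id1KO, 4972 in WT and 4586 in Id1KO_Zrf1KD. The number seen on all 4 arrays of 1 group but not of the others was 408 for Id1KO, 328 for WT and 215 for Id1KO_Zrf1KD. Among other probes that order was turned, with 711 for Id1KO_Zrf1KD, 623 for WT and 314 for Id1KO.

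Detection of probes rose with GC content. A locus strand counted as detected with 1 probe, so its share was larger with more probes in part by construction, though not at every step. At least 1 probe passed at 2673 of 4610 locus strands (58.0%), from 42.2% of those with 1 probe to 84.8% of those with 6 to 10. Every probe passed at 916 and none at 1937. Counted by locus, 2175 (61.4%) had a signal on some strand. The reverse strand was seen more often, with 38.9% of its probes against 33.1% of forward probes. Of the 1067 loci covered on both strands, 498 had a signal on both, 246 on the reverse strand alone, 173 on the forward strand alone and 150 on neither. The share of probes that passed was 27.1% at a GC content of 35% or less and 76.6% above 60%. Probes of loci up to 1000 bases long passed at 28.2%, those of longer loci at 35.1% to 39.1%.

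In Id1KO most tested lincRNA probes were higher than in WT. The probe median was -3.13 to -2.80 on the WT arrays and -2.60 to -2.34 on the Id1KO arrays, so the groups did not overlap. Limma's moderated test with Benjamini-Hochberg adjustment over all 30885 probes tested called 3088 of 5821 higher (53.0%; 42.3% of all probes tested) and 570 lower (9.79%; 28.1% of all probes). With a change of at least 2-fold as well, 1293 were higher (12.9% of all probes) and 132 lower (7.10% of all probes). The median log2 difference was 0.49 for lincRNA probes, 0.16 for all probes tested and -0.03 for probes with a gene symbol. Other noncoding or unnamed transcripts lay nearer to the lincRNA probes, with 0.49 for Gm-number probes, 0.24 for Rik probes and 0.44 for probes under other names. In these kinds 58.4%, 47.7% and 53.3% were called higher, in that order, so the rise was not particular to lincRNA probes. A probe that passed the filter only through the group where it was bright had to differ. Among the 3942 probes above background on all 12 arrays, 2303 were higher (58.4%; 43.9% of all probes under that filter) and 454 lower (11.5%; 30.8% of all probes), with a median of 0.48 against 0.14 for all probes. The 2-fold counts depended on the scaling: 402 were higher with normexp correction and 350 in the authors' deposited table, whose low values are compressed. The share of all probes at 2-fold was not counted there.

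With Zrf1 knockdown in Id1KO cells most tested lincRNA probes were lower. The probe median was -3.38 to -3.10 on the Id1KO_Zrf1KD arrays, below every Id1KO array. The same fit called 3607 of 5821 lower (62.0%; 40.6% of all probes tested) and 472 higher (8.11%; 30.3% of all probes). At 2-fold or more, 1869 were lower (14.5% of all probes) and 125 higher (6.81% of all probes). The median was -0.67 for lincRNA probes, -0.12 for all probes and 0.10 for probes with a gene symbol. It was -0.41 for Gm-number probes, -0.21 for Rik probes and -0.47 for probes under other names. In these kinds 52.1%, 46.8% and 54.1% were called lower, in that order. Among the probes above background on all 12 arrays, 2604 were lower (66.1%; 41.5% of all probes) and 367 higher (9.31%; 32.8% of all probes), with a median of -0.61 against -0.09 for all probes. At 2-fold, 688 were lower with normexp correction and 498 in the authors' deposited table, where the share of all probes was not counted. The comparison shares the Id1KO arrays with the one before, so values that are high on those arrays by chance raise the one difference and lower the other.

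Against WT, the Id1KO_Zrf1KD cells had 1998 lincRNA probes lower (34.3%; 32.4% of all probes tested) and 1036 higher (17.8%; 31.4% of all probes). The 2-fold counts were 970 lower (9.66% of all probes) and 397 higher (8.91% of all probes). The median was -0.18, against -0.03 for all probes. It was -0.12 without replicate 3 of Id1KO_Zrf1KD, -0.05 in the authors' deposited table and -0.026 with no scaling. With no scaling 1568 were lower (26.9%, against 21.7% of all probes) and 1282 higher (22.0%, against 35.2% of all probes). The array medians of these groups overlapped, with WT reaching down to -3.13. Among probes above background on all 12 arrays, 1332 were lower (33.8%; 32.9% of all probes) and 741 higher (18.8%; 32.7% of all probes), so the share lower was near that of all probes.

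**Figure D1:**
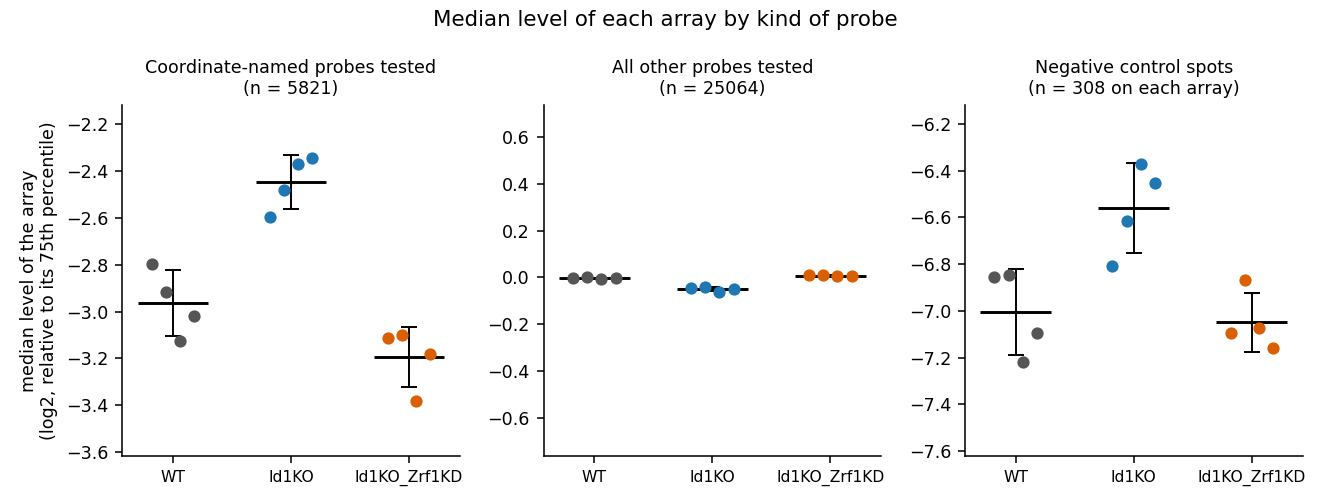
Median level of the tested lincRNA probes, the other tested probes and the negative control spots on each array (y axis, log2 relative to the 75th percentile of the array), by group on the x axis, with 1 point an array. The Id1KO arrays sit highest for lincRNA probes, at -2.60 to -2.34. The Id1KO_Zrf1KD arrays, at -3.38 to -3.10, overlap the WT arrays, at -3.13 to -2.80.

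**Figure D2:**
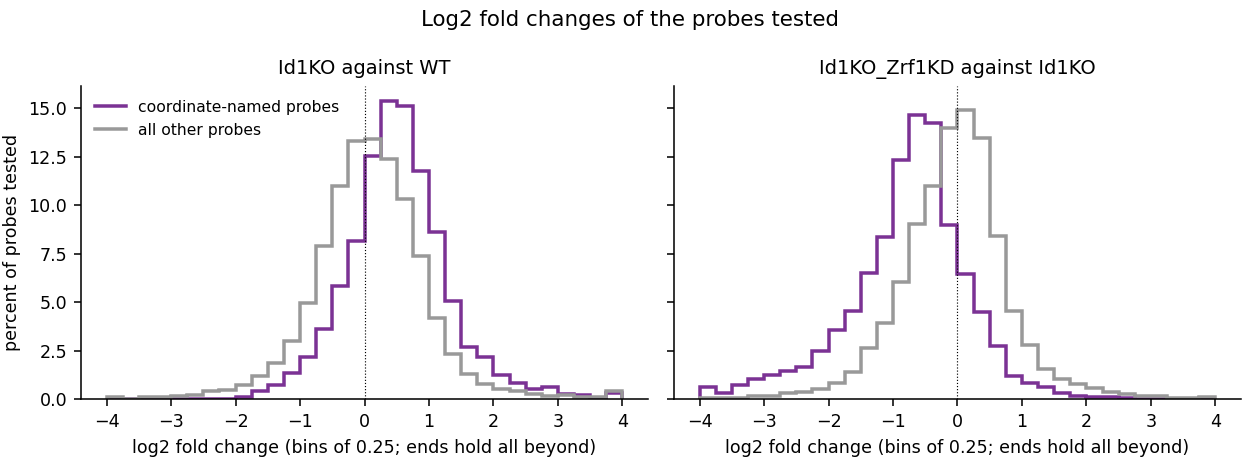
Distribution of log2 differences (x axis) as the percentage of probes in each bin (y axis), for the tested lincRNA probes and all other tested probes. The lincRNA probes centre at 0.49 for Id1KO against WT and at -0.67 for Id1KO_Zrf1KD against Id1KO.

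Both shifts were present on every slide, since each of the 3 slides held arrays of all 3 groups. The lincRNA median was 0.44, 0.55 and 0.50 for Id1KO against WT within the slides, against 0.06, 0.10 and 0.08 for other probes. For Id1KO_Zrf1KD against Id1KO it was -0.72, -0.69 and -0.75. The level at which nothing is measured moved with the groups as well. The 308 negative control spots of an array had a higher median in Id1KO, at -6.56 ± 0.19 (SD, n = 4), than in WT, at -7.0 ± 0.18, or Id1KO_Zrf1KD, at -7.05 ± 0.13. Probes above background on no array followed the controls. For lincRNA probes their median was -6.47 in Id1KO, -6.90 in WT and -6.97 in Id1KO_Zrf1KD. For other probes it was -6.49, -6.91 and -6.97 in that order. The 75th percentile that sets the scale was a signal of 393 to 492 on the Id1KO arrays, 441 to 550 on the WT arrays and 554 to 596 on the Id1KO_Zrf1KD arrays. The part of the background and of the scale in the shifts was not tested further than by the bands of level and the other scalings that follow.

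The shift was present in every band of level. For Id1KO against WT the median was 0.58 in the band of mean level up to -4, 0.51 between -1 and 0, 0.44 between 0 and 2 and 0.33 above 2, where other probes had 0.30, -0.08, -0.04 and 0.15. For Id1KO_Zrf1KD against Id1KO it was -0.88, -0.64, -0.53 and -0.28 in the same bands, where other probes had -0.13, 0.07, 0.09 and 0.01. The size depended on the scaling. For Id1KO against WT the median was 0.30 after quantile normalization, 0.21 with no scaling and 0.14 in the authors' deposited table, where the median of all probes tested was 0.02, -0.12 and 0.01. For Id1KO_Zrf1KD against Id1KO it was -0.42, -0.23 and -0.19, beside medians of all probes near 0.00, at 0.31 and near 0.00. Relative to all probes, the lincRNA median kept its direction in each. With no scaling the calls split into 2107 higher (36.2%; 25.2% of all probes) and 909 lower (15.6%; 37.2% of all probes) for Id1KO, and 970 higher (16.7%; 47.8% of all probes) and 2222 lower (38.2%; 19.5% of all probes) for the knockdown.

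**Figure D3:**
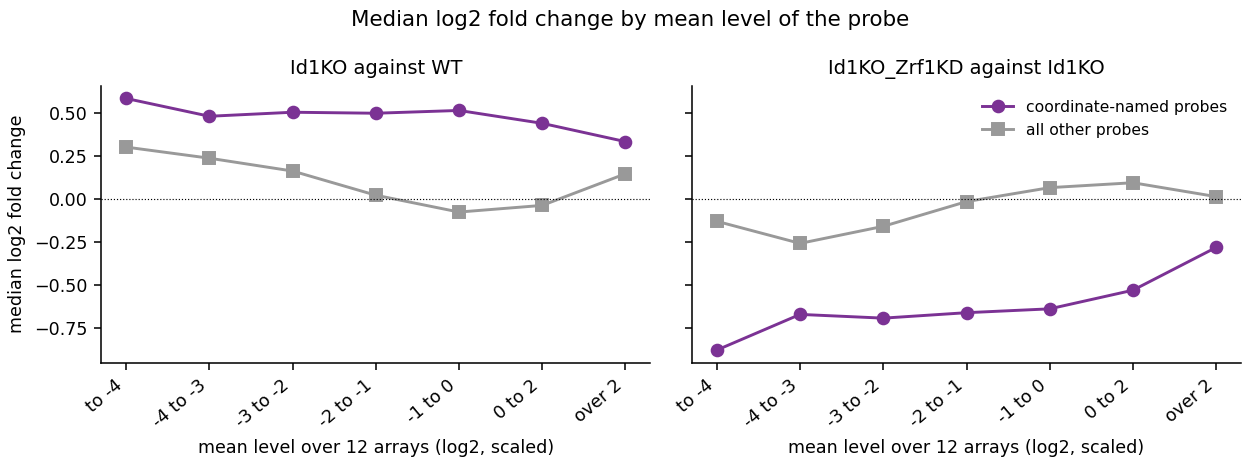
Median log2 difference (y axis) in bands of mean level over the 12 arrays (x axis, log2 relative to the 75th percentile), for lincRNA probes and other probes in both comparisons. LincRNA probes lie above the other probes in every band for Id1KO against WT, from 0.58 in the lowest to 0.33 in the highest band, and below them for the knockdown.

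The shift was spread over the genome. By chromosome, the median for Id1KO against WT ran from 0.37 on chromosome 14 to 0.67 on chromosome 12, and that for the knockdown from -0.44 to -0.95 on the same chromosomes. On the X chromosome, lincRNA probes had a median of 0.51 and other probes -0.22 in Id1KO. Other probes of chromosome 12 had 0.28 in Id1KO and -0.08 with knockdown. Across bands of GC content the lincRNA median was 0.39 to 0.57, and -0.53 to -0.79 with knockdown. Other probes had 0.004 to 0.36, and -0.37 to 0.02. Above 60% GC the kinds of probe were close in Id1KO, at 0.39 for lincRNA probes and 0.36 for the 127 other probes tested. With knockdown they had -0.53 and -0.37 there.

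The strands moved alike in Id1KO and less so with Zrf1 knockdown. Forward and reverse probes had medians of 0.49 and 0.50 in Id1KO, and of -0.60 and -0.73 with knockdown. The share that was at least 2-fold lower with knockdown was 36.7% for reverse and 27.9% for forward probes. At loci covered on both strands the shares were 38.9% and 24.8%, and at loci covered on 1 strand 32.8% and 32.3%. Counted once per cluster of overlapping loci, they were 29.8% and 24.5%, with medians of -0.66 and -0.63. Other probes showed 9.95% on the reverse and 11.1% on the forward strand. Above a level of -1 both strands had a median of -0.51. The difference between strands was not tested, because probes of a locus are not replicates.

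Probes of the same locus strand moved by like amounts, and probes of opposite strands less so. The median difference between 2 tested probes of a strand was 0.22 on the log2 scale over 6399 pairs in Id1KO against WT, close to 0.21 for the 5647 pairs of probes of a gene symbol. It was 0.46 over 3835 pairs on opposite strands of a locus. The correlation across pairs was 0.80 on the same strand and 0.29 on opposite strands, as a description of pairs that share loci. With knockdown the values were 0.24 and 0.53 for the difference and 0.78 and 0.29 for the correlation. Where both probes of a strand were called, 3368 of 3428 pairs had 1 sign, against 1311 of 1481 on opposite strands. For pairs of a gene symbol it was 2965 of 3283. Of the 1463 locus strands with 2 or more tested probes, every tested probe was higher at 535 and lower at 85 in Id1KO, and 33 held calls in both directions. With knockdown these were 71, 657 and 45. Most lincRNA calls went 1 way in each comparison, so pairs and locus strands agree in part through that common shift.

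Of the 498 loci measured on both strands, the strand medians were both above 0 at 338, both below at 36 and on different sides at 124 in Id1KO against WT. With knockdown the counts were 25, 382 and 91. Calls in opposite directions stood at 40 loci in the first comparison and at 43 in the second.

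**Figure D4:**
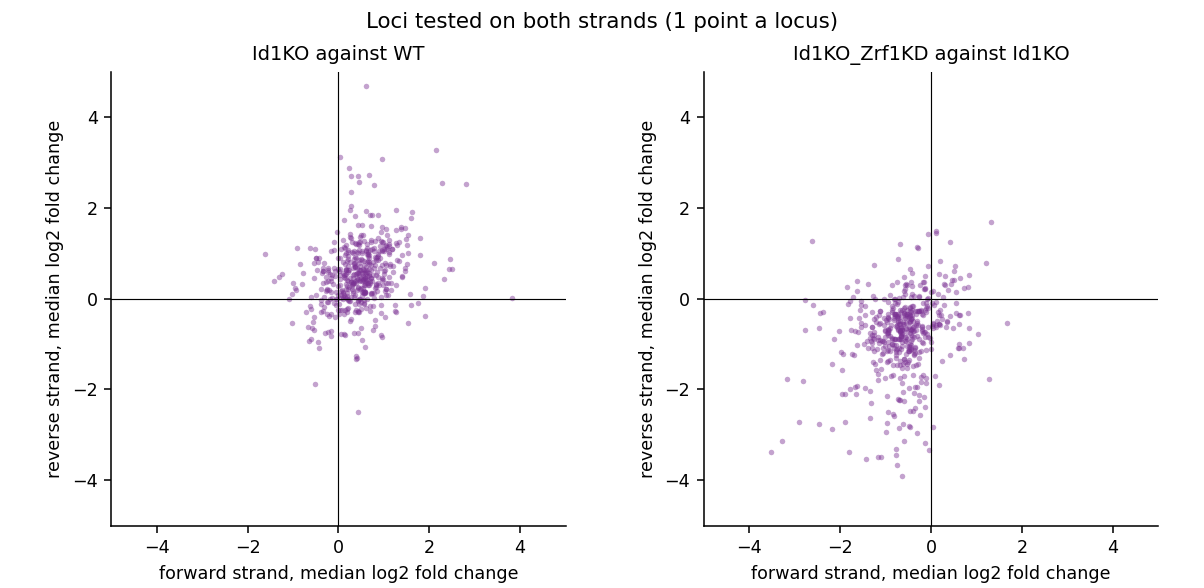
Median log2 difference of the forward strand (x axis) against that of the reverse strand (y axis) at the 498 loci measured on both strands, with 1 point a locus, for Id1KO against WT and for Id1KO_Zrf1KD against Id1KO. Most points lie in the upper right in the first, with 338 loci, and in the lower left in the second, with 382.

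The leading rise in Id1KO was at chrX:50087925-50101700 on the reverse strand, which holds Kis2, a noncoding transcript that hosts a cluster of microRNAs. The level of the probe printed first was -4.67, -4.68, -4.93 and -4.70 in WT, -0.44, -0.22, -0.30 and -0.27 in Id1KO, and -3.77, -3.85, -3.42 and -3.48 in Id1KO_Zrf1KD. The 3 groups did not overlap, and the knockdown arrays lay between the others. The probe was above background on 3 of the 4 WT arrays. Id1KO was 21.7-fold above WT (log2 difference 4.44, SE 0.10, limma adjusted p = 4.94e-11), and at least 6.09-fold above it under every other scaling. The knockdown was 10.01-fold below Id1KO (log2 -3.32, SE 0.10, adjusted p = 6.01e-10; 4.66-fold at the smallest). All 7 probes of the locus passed, with log2 differences of 3.61 to 5.13 and then of -4.0 to -2.84. They overlap in part and share their target. The array's own Kis2 probe, inside the interval, gave 4.50 and -3.06.

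On chromosome 8 the reverse strand of chr8:37582187-37621987, 9.41 kb from Dlc1, was bright in Id1KO alone. Its probe read -6.83, -6.95, -7.27 and -7.08 in WT, -1.64, -1.90, -1.62 and -1.84 in Id1KO, and -6.57, -6.08, -7.10 and -6.68 in Id1KO_Zrf1KD. It was not well above background on any array of the outer groups. Such a fold is a lower bound, taken against the dimmest signal that the software still called well above background: at least 10.6-fold higher in Id1KO than in WT and at least 9.41-fold lower with knockdown. The probe passed the filter through Id1KO alone, so its tests add nothing to these bounds. All 5 probes of the strand passed, with log2 differences of 2.92 to 5.28 and -4.86 to -2.84, while Dlc1 on the same strand gave -0.54 and 0.22. The bound holds for the chosen scaling: the smallest fold over other scalings was 2.84 and 2.66.

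A further locus that rose in Id1KO and fell back was chr5:123439974-123448354, forward, which holds A930024E05Rik. The array's own A930024E05Rik probe was above background on no array. The level of the locus probe was -0.52 ± 0.05 in Id1KO, against -3.66 ± 0.18 in WT and -2.87 ± 0.20 in Id1KO_Zrf1KD (SD, n = 4), 8.78-fold up and 5.10-fold down, with no overlap between groups. The fold up was 3.70 at the smallest over scalings. On chr10:116814196-116920696, reverse, near the RNA-processing gene Cpsf6, the levels were -3.04 ± 0.21, -0.10 ± 0.06 and -3.37 ± 0.05. Id1KO was 7.68-fold above WT and 9.65-fold above the knockdown. The forward probe of chr16:3337275-3355950 rose 9.07-fold, from -3.49 ± 0.05 to -0.31 ± 0.07, and fell 2.48-fold to -1.62 ± 0.09.

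Some loci rose in Id1KO and did not fall with knockdown. On chr12:89479525-89503525, forward, the level was -3.26, -3.18, -3.50 and -3.17 in WT, 0.07, 0.18, 0.26 and 0.11 in Id1KO, and 0.16, -0.04, 0.06 and 0.29 in Id1KO_Zrf1KD. Id1KO and knockdown arrays overlapped, and both lay above every WT array. The rise was 10.8-fold (log2 3.43, SE 0.09, adjusted p = 1.15e-10; 5.34-fold at the smallest), and the second step was -0.04 (adjusted p = 0.722). The neighbouring chr12:89519675-89533975, reverse, rose 8.70-fold, by 2.58-fold at the smallest. At the Speer gene cluster of chromosome 5, the forward probe of chr5:14923900-15062725 rose 17.7-fold (3.87-fold at the smallest), from -4.90 ± 0.42 to -0.76 ± 0.10, and stood at -0.68 ± 0.07 with knockdown. It was above background on 2 of the 4 WT arrays. Loci overlap there and the Speer genes are a family of similar copies, so which copy gave the signal is uncertain. Inside it, the forward probes of chr5:14996031-15035334 and chr5:14988715-14989311 were at background on all 4 WT arrays and rose at least 12.9-fold and 12.1-fold, with 2.76-fold and 2.81-fold at the smallest over scalings.

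Fewer loci fell in Id1KO, and by less. The reverse strand of chr15:79276925-79286500 read -0.16, 0.23, 0.25 and 0.06 in WT, -2.32, -1.87, -1.58 and -1.34 in Id1KO, and -1.19, -0.99, -1.33 and -1.02 in Id1KO_Zrf1KD. Every WT array was above the rest. The fall was 3.67-fold (log2 -1.87, SE 0.19, adjusted p = 3.71e-06), and the kinase gene Csnk1e, 21.5 kb away on the same strand, fell by 1.58 on the log2 scale. The fall was seen on 1 probe: the other 2 probes of the strand were not tested, and tested reverse probes of 2 shorter lincRNA loci inside the interval gave -0.24 (adjusted p = 0.712) and 0.032 (adjusted p = 0.947). At chr7:114369337-114407862, reverse, the level went from -0.38 ± 0.06 to -2.05 ± 0.08, 3.19-fold lower, and to -1.53 ± 0.03. The forward probe of chr10:83185606-83225506 went from 3.83 ± 0.09 to 2.23 ± 0.07, 3.04-fold lower, and to 2.80 ± 0.03; 1500009L16Rik inside it gave -1.58 and 0.47. At chr6:53808521-53817132, forward, all 3 probes fell; the one with the largest bound was at least 9.65-fold lower, from -1.38 ± 0.06 in WT to background on all Id1KO and all Id1KO_Zrf1KD arrays.

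**Figure D5:**
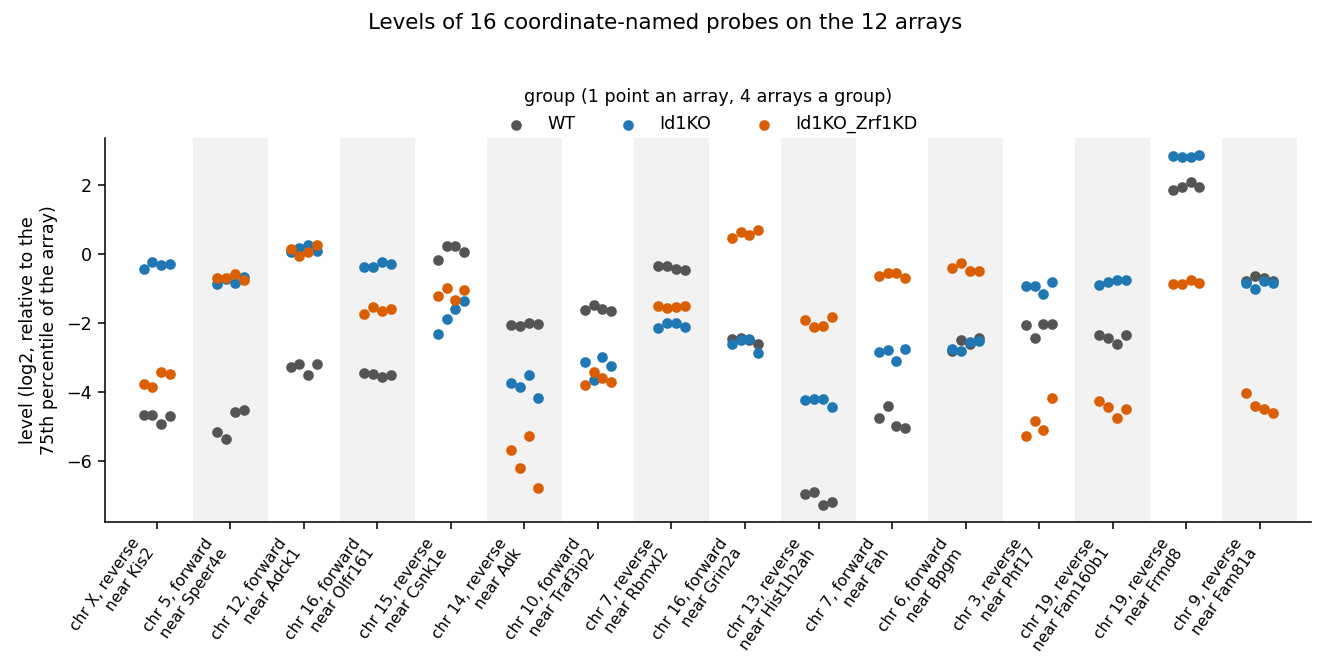
Levels of 16 lincRNA probes on the 12 arrays (y axis, log2 relative to the 75th percentile of the array; x axis, chromosome, strand and nearest gene), with 1 point an array and 4 points a group. The X-chromosome probe near Kis2 sits at -0.44 to -0.22 in Id1KO alone, and the chromosome 16 probe near Grin2a at 0.49 to 0.70 in Id1KO_Zrf1KD alone.

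With Zrf1 knockdown the leading rise was at chr16:9158862-9162427, forward, in a gene-poor stretch whose nearest gene is Grin2a. The probe read -2.45, -2.43, -2.49 and -2.60 in WT, -2.61, -2.49, -2.45 and -2.85 in Id1KO, and 0.49, 0.66, 0.56 and 0.70 in Id1KO_Zrf1KD. WT and Id1KO overlapped and every knockdown array lay above them. The rise was 9.19-fold (log2 3.20, SE 0.09, adjusted p = 2.51e-10), and 5.34-fold at the smallest over scalings. At chr6:34548561-34612216, forward, the level rose 4.75-fold to -0.40 ± 0.10 from -2.65 ± 0.15.

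Some loci rose at both steps. The reverse probe of chr6:23105525-23118900 went from 0.65 ± 0.09 in WT to 2.61 ± 0.19 in Id1KO, and reached 4.30 ± 0.08 with knockdown, 3.89-fold and then 3.22-fold. The groups did not overlap, and 2 transcript probes inside the interval gave 1.64 and 1.77, then 1.51 and 1.65. At chr13:22110479-22116629, reverse, among histone genes, the level was -7.08 ± 0.18, -4.26 ± 0.12 and -1.97 ± 0.15, at background on every WT array. The second step was 4.88-fold (limma adjusted p = 7.26e-09), with 1.97-fold at the smallest, and 2 of the 4 Id1KO arrays were above background. This probe passed the filter through Id1KO_Zrf1KD alone, so its test adds nothing to the fold. At chr7:91558475-91733625, forward, the level was -4.80 ± 0.29, -2.86 ± 0.16 and -0.60 ± 0.07, a second rise of 4.8-fold, and Gm2115 inside it gave 2.28. Near Inhba, which encodes an activin subunit, chr13:15947521-15999246, forward, rose 4.07-fold (1.36-fold at the smallest) from a level above background on 1 of the 4 Id1KO arrays, as Inhba itself rose by 3.1 on the log2 scale.

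By the same choice of probes, the 6 leading falls with knockdown, the 3 largest lower bounds and the 4 loci chosen for several falling probes all lay on reverse strands. These lists share some loci. Over all tested lincRNA probes, 1127 reverse and 742 forward probes were called at least 2-fold lower, so forward strands fell too. On chr3:41143423-41359623 the level was -2.05, -2.42, -2.02 and -2.02 in WT, -0.92, -0.91, -1.16 and -0.80 in Id1KO, and -5.27, -4.84, -5.10 and -4.17 in Id1KO_Zrf1KD. Id1KO arrays were highest, knockdown arrays lowest, and no groups overlapped. The probe was above background on 1 of the 4 knockdown arrays, so the measured fall of 15.0-fold (log2 -3.90, SE 0.21, adjusted p = 2.69e-08) ends near the background and its size is uncertain. It was 3.39-fold at the smallest over scalings. On chr19:57426515-57435165 the level was -2.43 ± 0.12, -0.79 ± 0.06 and -4.48 ± 0.20, a 12.9-fold fall (3.48-fold at the smallest) seen on 5 of 5 probes at log2 differences of -5.0 to -0.97.

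The reverse strand of chr9:70017793-70045355 fell without having risen. Its probe read -0.77, -0.64, -0.69 and -0.79 in WT, -0.84, -1.0, -0.78 and -0.84 in Id1KO, and -4.03, -4.39, -4.50 and -4.61 in Id1KO_Zrf1KD. WT and Id1KO overlapped and the knockdown arrays were far below. The fall was 11.4-fold (log2 -3.52, SE 0.11, adjusted p = 5.73e-10; 3.74-fold at the smallest), and all 5 probes fell, by 2.69 to 3.82 on the log2 scale.

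Other falls ended at the background. On chr1:182180931-182186106 the first of the 2 printed probes read -3.50, -3.45, -3.35 and -3.33 in WT, -2.53, -2.99, -2.90 and -2.83 in Id1KO, and -7.25, -6.98, -7.17 and -7.27 with knockdown, not well above background on any of the latter. It was at least 4.50-fold lower than in Id1KO (adjusted p = 8.52e-11), and the second at least 9.96-fold, from -1.67 ± 0.11. Both other tested probes of the strand fell, by 2.0 and 3.89 on the log2 scale. On chr11:60728207-60745369 the level fell at least 11.4-fold, from -1.46 ± 0.14, and on chr17:24157887-24158104 at least 10.9-fold, from -1.53 ± 0.19. On chr4:124127144-124334840, 2.85 kb from Pou3f1, which encodes a POU transcription factor, all 5 probes of the reverse strand rose in Id1KO and fell with knockdown. The 3 reverse probes of chr4:124206166-124334412, inside the same interval, gave -0.10 to 0.14 in Id1KO with no call, and -0.53 to -0.23 with knockdown with 1 call. The leading probe went from -3.94 ± 0.26 to -1.60 ± 0.12 and then at least 10.5-fold down to background. Pou3f1, on the other strand, gave 1.91 and -0.90. Other scalings gave smaller folds for these probes, down to 1.83 and 2.75 on chromosome 1 and 2.93, 2.76 and 2.76 on the other 3.

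Some loci held probes of opposite strands that moved in opposite directions. The forward probe of chr4:146507925-146532650 read -3.93, -3.69, -3.98 and -4.06 in Id1KO and -7.16, -6.93, -7.07 and -7.19 with knockdown, at background on all 4. The reverse probe, printed beneath it, read -1.34, -1.68, -1.50 and -1.50 in Id1KO and -0.27, -0.19, -0.09 and -0.15 with knockdown. No values of the groups overlapped, and 1 strand went down as the other went up. The forward probe was at least 2.10-fold lower (adjusted p = 3.06e-08; 1.37-fold at the smallest over scalings) and the reverse probe 2.51-fold higher (adjusted p = 3.5e-08).

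At chr9:118291593-118324230, 70.2 kb from Eomes, a T-box transcription factor of mesendoderm, 1 forward probe rose from 0.83 ± 0.12 to 1.84 ± 0.11 with knockdown (2.02-fold) and a reverse probe fell from -0.54 ± 0.11 to -3.95 ± 0.19 (10.6-fold; 4.30-fold at the smallest). The strands as a whole did not part: the other tested forward probe fell by 1.72 on the log2 scale, and the strand medians were -0.35 and -2.42. Eomes gave 0.84. At chr14:22267795-22319045, next to the adenosine kinase gene Adk, the forward strand rose in Id1KO from 1.29 ± 0.03 to 2.65 ± 0.10 (2.57-fold) and moved by -0.68 with knockdown, where Adk on that strand gave 1.36 and -0.69. A reverse probe went from -2.03 ± 0.04 to -3.82 ± 0.27 (3.44-fold lower) and then to background on all 4 knockdown arrays, at least 2.25-fold below Id1KO and at least 7.72-fold below WT. A neighbouring reverse probe gave -1.85 in Id1KO, but the other 4 tested on that strand gave -0.32 to 0.58 with no call, and the strand median was -0.29. At chr1:13058312-13099826, 3.73 kb from Prdm14, a regulator of pluripotent and germ cells, the forward probe fell 2.23-fold in Id1KO, from 0.00 ± 0.06 to -1.15 ± 0.05, and the reverse probe rose 3.25-fold, from -4.48 ± 0.38 to -2.78 ± 0.28 (1.44-fold at the smallest). Prdm14 fell by 1.57 on the log2 scale.

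The interval of the nuclear RNAs Malat1 (NEAT2 on the array) and Neat1, the scaffold of paraspeckles, showed unequal falls with knockdown. The reverse probe of chr19:5771425-5848475 read 1.86, 1.96, 2.10 and 1.96 in WT, 2.85, 2.84, 2.81 and 2.87 in Id1KO, and -0.86, -0.86, -0.74 and -0.83 in Id1KO_Zrf1KD. No groups overlapped, and the fall was 12.7-fold (log2 -3.66, SE 0.05, adjusted p = 8.5e-12; 9.38-fold at the smallest). The 3 NEAT2 probes gave 0.89 to 0.94 in Id1KO and then -3.70 to -3.67. The 5 NEAT1 probes gave -0.53 to -0.44 and -2.85 to -2.49. Probes of shorter lincRNA intervals within it fell less, with -1.53 to -1.35 for the 3 probes of chr19:5801802-5802597 and -1.63 to -1.61 for those of chr19:5798135-5800557. Which transcript each probe reads was not determined. Probes of 1 RNA may thus differ here, and the size of its fall is uncertain. The probe of chr19:5801802-5802597 was among the 6 brightest lincRNA probes, at 8.54 ± 0.03, 9.15 ± 0.10 and 7.79 ± 0.05.

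The other 5 of the brightest probes changed little. Signals of different probes do not rank their transcripts, since probes bind unequally. The brightest, of chr11:22681800-22707775, reverse, stood at 8.83 ± 0.07, 9.42 ± 0.03 and 8.77 ± 0.04. Its log2 differences of 0.58 and -0.65 were called, and shrank to 0.05 and -0.09 at the smallest over scalings. The probe of chr17:17481706-17482457 gave 0.74 and -0.43, and the latter turned to between 0.0015 and 0.081 under quantile normalization, the deposited table and no scaling. The differences of the probes of chr14:78924115-78938125, chr17:48068261-48087905 and chr7:108209996-108216032 were 0.05 to 0.39 and -0.38 to -0.18, and turned direction under other scalings too.

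A few names carried no strand letter. The 3 probes of chr3:034856791-034869544 lay outside their named interval, at chr3:34575851-34576482, and nearest to Sox2; the 2 tested gave 2.16 and 2.30, then -2.32 and -3.0. The 5 probes of chr17:012941161-012944859 lie in Airn, the imprinted antisense RNA of Igf2r. The 4 tested gave -0.38 to 0.78 in Id1KO and -0.05 to 0.42 with knockdown, with no call in the latter.

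Neighbouring genes did not shift with the lincRNA loci as a whole. A gene probe lay within 100 kb of 2270 tested locus strands and was itself tested for 1963. The gene medians were 0.02 in Id1KO and 0.14 with knockdown, where the locus medians were 0.48 and -0.64. The correlation over those 1963 was 0.23 and 0.16, and within 20 kb, over 1123 locus strands, 0.28 and 0.22. These are descriptions over loci of which some share a gene. Of 32851 RefSeq promoter windows (GRCm38.p6), 105 genes' windows held the sequence of a lincRNA probe, 82 probes on the strand of the gene and 90 against it. Of the 168 probes, 71 were tested, with medians of 0.49 and -0.62.

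Named long noncoding RNAs on the same arrays mostly moved in the same directions. Of a list of 56, 28 had a probe under the symbols searched and 24 were tested. Malat1, which the array names NEAT2, was missed by that search and is not among them. In Id1KO 21 were higher (42.3% of all probes tested) and 2 lower (28.1% of all probes), with a median of 1.15. With knockdown 19 were lower (40.6% of all probes) and 3 higher (30.3% of all probes), with a median of -1.04. Meg3, a maternally expressed imprinted RNA, went from 2.97 to 5.39 and 2.30 (2.41, then -3.09), and Mirg of the same cluster gave 2.36 and -2.53. Zfas1 and Gas5, hosts of small nucleolar RNAs, gave 1.57 and -2.44, and 1.55 and -2.29. Mir17hg, the host of the microRNA cluster related to that of Kis2, gave 2.95 and -1.03. Xist and Tsix, the antisense pair of X inactivation, gave 2.16 and -0.59, and 1.56 and -1.36. H19, a fetal imprinted RNA, ran the other way, at -0.65 and 1.60. The ROSA26 transcript was 2.30 higher in Id1KO, and its second step of -0.21 did not pass (adjusted p = 0.057).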

How the data were processed

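Total RNA was amplified from oligo-dT primers and labelled with Cy3, per the labels' protocols, which keeps the strand of a transcript. The authors deposited 12 scanner tables of probe intensity (processed signals of Feature Extraction 10.7.3.1, build mm9, per the file headers), with flags for spots well above background and for outliers that are other values per the file headers, and a table of log2 values whose making the labels do not state. That deposited log2 table correlated at 0.999 or more with normexp-corrected signals of each array. Its low values are compressed and its higher values are brighter spots.

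From the scanner intensity, spots flagged as outliers were left out, log2 was taken and the 75th percentile of each array over all probes that are not controls was subtracted. A probe was tested where it was well above background on all 4 arrays of at least 1 group. One limma fit (3.58.1, R 4.3.3, lmFit and eBayes) with a mean for each of the 3 groups covered 30885 probes, with Benjamini-Hochberg adjustment over all of them and a threshold of 0.05. The fit was tested on simulated data. Probes were read from their names, positions and descriptions; names and coordinates are those of the array design, and no genome sequence was used apart from RefSeq promoter windows of GRCm38.p6, which were searched for probe sequences. Tables were made with pandas 2.3.3 and numpy 2.4.6 and figures with matplotlib 3.10.9.

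The leading probes and those with a lower bound had no overlap of the compared groups, a change of at least 2-fold and an adjusted p under 0.05. With 1 probe a locus strand, that of the smallest adjusted p, they were the 6 highest and 6 lowest of those that each compared group showed above background on some array, with the 3 largest lower bounds in either direction, for Id1KO against WT and for Id1KO_Zrf1KD against Id1KO. Added were the 6 brightest loci, up to 4 loci with opposite strands, up to 4 with 3 or more called probes of 1 sign, and up to 4 of each pattern over both steps. For these added probes overlap was not a criterion. The brightest needed no call, the opposite strands and several probes needed a call, and the patterns needed a call and a 2-fold change at both steps. Probes of chromosome 18 were not considered for naming. The result of 1 locus is not reported here. The members, this rule and the gene lists were chosen with earlier results of these data known. Replicate numbers did not pair samples: deviations of same-numbered arrays had a median correlation of -0.18, those of arrays on 1 slide 0.22. Alternatives were 4 other scalings, no scaling, 2 other filters, the slide or the replicate number as a block, 1 probe a locus strand and each array left out.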

Additional observations from a re-analysis of the deposited data

Results flagged for a closer look

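Groups of 4 arrays were examined at 69 probes that the rule for named probes chose, of which some are described only here. Medians and detection shares of whole arrays were examined as well. Of the 219 groups in all, 10 (4.57%) had 1 array set apart from the other 3 by Dixon's criterion, and chance gives about 1 in 20. All 10 were at probes. In WT, replicate 2 was lowest at chr3:41143423-41359623, reverse, at -2.42 against -2.05 to -2.02. Replicate 3 was lowest at chr15:43363046-43364763, forward, at -4.83 against -4.12 to -4.09, and at chrX:50087925-50101700, reverse, at -4.93 against -4.70 to -4.67. Replicate 1 was highest at chr14:78924115-78938125, forward, at 8.27 against 7.96 to 8.0. In Id1KO, replicate 3 was highest at another forward probe of chr7:91558475-91733625 than the one described above, at -4.29 against -4.59 to -4.54, and replicate 4 lowest at chr13:22110479-22116629, reverse, at -4.43 against -4.22 to -4.19.

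In Id1KO_Zrf1KD, replicate 3 was lowest at that other chromosome 7 probe, at -2.01 against -1.80 to -1.78. Replicate 4 was highest at chr11:112905201-113062945, reverse, at -3.96 against -4.40 to -4.36, and lowest at chr11:22681800-22707775, reverse, at 8.71 against 8.78 to 8.79. Replicate 2 was highest at chr11:120041124-120052299, reverse, at -5.90 against -7.13 to -6.98, where no array was above background.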

How the results depend on the processing

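The direction of the lincRNA medians and the side with more calls held under every scaling, filter and block tried and without each array. The median for Id1KO against WT was 0.30 after quantile normalization, 0.14 in the deposited table and 0.21 unscaled; that for the knockdown against Id1KO was -0.45 with normexp, -0.42 after quantile normalization, -0.19 deposited and -0.23 unscaled. With no scaling, which was added after seeing the data, 909 probes were lower in Id1KO (15.6%, against 37.2% of all probes). With knockdown 970 were higher (16.7%, against 47.8%) and 2222 lower (38.2%, against 19.5%). With no filter, 6191 of 16194 were higher in Id1KO (38.2%; 36.4% of all probes) and 7480 lower with knockdown (46.2%; 38.0% of all probes), with medians of 0.43 and -0.51 against 0.33 and -0.41 for all probes. The lincRNA share in Id1KO is then near that of all probes. With the brightest probe of each locus strand, 2673 were tested. In Id1KO 1456 were higher (54.5%, against 42.5% of all probes) and 217 lower (8.12%, against 29.6%). With knockdown 191 were higher (7.15%, against 32.3%) and 1642 lower (61.4%, against 39.8%). For Id1KO_Zrf1KD against WT 414 were higher (15.5%, against 32.4%) and 792 lower (29.6%, against 32.2%). Asking for 2 probes left 1463 locus strands detected. Fewer features are tested in the last settings by construction.

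Without each array in turn, calls ran from 2843 to 3127 higher and 529 to 577 lower for Id1KO (median 0.45 to 0.54), from 431 to 481 and 3391 to 3657 for the knockdown (-0.73 to -0.61), and from 959 to 1066 and 1866 to 2012 against WT (-0.23 to -0.12). Of all probes, 40.3% to 42.7% were then higher and 26.9% to 28.2% lower for Id1KO. For the knockdown these shares were 28.9% to 30.4% and 38.7% to 40.8%, and against WT 29.6% to 31.4% and 30.6% to 32.5%. From 5840 to 5942 probes passed. With the replicate number as a block, calls were 3009 and 553, 458 and 3534, and 1003 and 1945, and no named call was lost. With the slide as a block they were 3324 and 615, 481 and 3931, and 1072 and 2238.

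Over 2465 combinations of 119 results of named probes with a setting, 2422 kept direction and side of the threshold, 18 lost the call, 3 gained it and 22 turned. The deposited and quantile values turned bright probes, in the order quantile, deposited, unscaled. For the knockdown these were 0.12, 0.10 and 0.056 for chr17:48068261-48087905; 0.081, 0.05 and 0.0015 for chr17:17481706-17482457; 0.098, 0.105 and 0.10 for chr7:108209996-108216032; and 0.31, 0.30 and 0.26 for chr14:78924115-78938125. For Id1KO they were -0.12 and -0.12 (quantile, deposited) for the first, -0.23, -0.23 and -0.043 for the third, and -0.45, -0.40 and -0.23 for the last. The last was also called lower with knockdown without WT replicate 1 (-0.18), without Id1KO replicate 3 (-0.23) and with another percentile (-0.25). Normexp turned 2 dim probes, chr11:112905201-113062945 in Id1KO (0.030) and the forward probe of chr6:112552041-112560067 with knockdown (-0.033). The causes were not tested. Signals near the background limit the size of most folds, and 4 arrays a group limit their precision.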

Other observations

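A small group of loci ran against the main pattern, lower in Id1KO and higher again with Zrf1 knockdown. The forward probe of chr8:48476637-48492537 stood at 3.4 ± 0.18 in WT, 1.8 ± 0.51 in Id1KO and 3.08 ± 0.20 in Id1KO_Zrf1KD (SD, n = 4), 3.05-fold down and 2.43-fold up by the limma fit (adjusted p = 4.8e-05 and 0.000276). Its Id1KO arrays lay below all others. The reverse probe of the same locus went the other way, with log2 differences of 0.98 and -1.78. Each strand had 5 probes, of which only that 1 was tested. Near Lmx1b, which encodes a LIM homeodomain factor, the forward probe of chr2:33500594-33501874 read -4.27 ± 0.59, -5.81 ± 0.54 and -4.01 ± 0.16, at background on every Id1KO array, and both its calls were lost with normexp correction.

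Other loci were bright with knockdown alone. The forward probe of chr8:56200419-56205756, at Gm10674, was above background on no Id1KO array and rose at least 4.41-fold, to -2.71 ± 0.14. The reverse probes of chr8:71495043-71525582 and chr1:175654606-175672031 rose at least 2.89-fold and 2.55-fold, and the call of the latter was lost with normexp correction. On chr2:94082835-94101939, reverse, the level was -5.52 ± 1.15 in WT, above background on 1 of the 4 arrays, and -2.06 ± 0.06 with the Id1 knockout, so the size of the rise is uncertain. It stood at -5.34 ± 0.24 after Zrf1 knockdown, a fall of at least 7.57-fold.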
